A study of Mus musculus with 21 samples.

Results

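Respiratory complex I was followed here through 35 of its nuclear-encoded subunits in the hippocampus of mice reared with or without maternal separation (MS). The subunits were taken by gene symbol from the 55487 genes of the counts table, without assembly factors and pseudogenes, and were divided by their place in the enzyme into the N module (10 genes), the Q module (5 genes) and the membrane arm (20 genes). The animals were male wild-type C57BL/6 mice killed at 10 weeks of age, with 1 poly-A RNA library per mouse. MS mice had been kept apart from the dam as whole nests for 4 hr a day from postnatal day 10 to 17, and most of the nesting material had been taken out of their home cages in those days. Standard reared (SR) mice stayed with the dam, and both groups were otherwise housed alike and received no other treatment. Separation and scarce nesting material went together, so their effects cannot be told apart. The labels give an animal number for each mouse but no nest, and these numbers fall into 7 sets of 3 consecutive animals that each hold 1 rearing condition, sets A to C in MS and sets D to G in SR.

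Complex I takes electrons from NADH, passes them along a chain of iron-sulfur clusters to ubiquinone and pumps protons across the inner mitochondrial membrane. The N module at the tip of the peripheral arm oxidises NADH, the Q module below it reduces ubiquinone, and the membrane arm pumps protons. The core of the membrane arm is encoded by mitochondrial DNA, so the enzyme needs transcripts of both genomes. Its nuclear genes encode both catalytic core subunits with flavin or iron-sulfur clusters and many small accessory subunits that hold the complex together. Neurons depend on it for most of the ATP that synaptic transmission uses.

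The starts of these genes were searched for 4 short motifs known from nuclear genes of the respiratory chain, on both strands, from 250 bases before to 50 bases after the start that RefSeq gives on GRCm38.p6. RefSeq promoters were at hand for 32 of the 35 genes. The YY1 motif AAGATGGCG was the most frequent beyond its background, in 5 of 32 windows (15.6%) against 1.64% of the windows of all genes and 2.14% of those of protein-coding genes. All 5 matches lay after the start, in the reading direction, and the ATG inside each was an annotated start codon. They are shown because this motif stood out most from its background, 5′ to 3′ on the gene's strand with the motif in capitals.
Ndufa9 (chr6:126849096-126849125, minus strand): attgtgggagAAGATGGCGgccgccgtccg
Ndufc1 (chr3:51408914-51408943, minus strand): cctgcggaacAAGATGGCGccgtccgtagt
Ndufs4 (chr13:114388045-114388074, minus strand): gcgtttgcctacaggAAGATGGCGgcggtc
Ndufs6 (chr13:73328433-73328462, minus strand): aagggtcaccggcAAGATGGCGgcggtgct
Ndufs7 (chr10:80249463-80249492, plus strand): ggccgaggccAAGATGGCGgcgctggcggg

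The palindrome CGCATGCG of the NRF1 motif was found in 2 windows (6.25%), those of Ndufa8 and Ndufa11. The share was 2.07% of all genes and 2.77% of protein-coding genes, and both matches lay before the start.
Ndufa8 (chr2:36049329-36049358, minus strand): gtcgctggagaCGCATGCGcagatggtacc
Ndufa11 (chr17:56717692-56717721, plus strand): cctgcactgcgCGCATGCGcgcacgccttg
The ETS letters CCGGAAG were in 4 windows (12.5%), those of Ndufb6, Ndufb7, Ndufs3 and Ndufs8. Here the share was 9.93% of all genes but 12.9% of protein-coding genes, so the subunits did not exceed the latter. The ERR letters AAGGTCA were in 3 windows (9.38%, all genes 5.38%, protein-coding genes 4.73%), those of Ndufb2, Ndufb4 and Ndufs5. No window held more than 1 of the 4 motifs. The genes with the YY1 motif had log2 fold changes between MS and SR from 0.086 (Ndufs4) to 0.30 (Ndufs6), within the range of the other subunits.

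Of the 21 libraries, 9 were from MS and 12 from SR mice, with total counts from 17276810 to 30449055. The MS library A2 was farthest from the others in a principal component analysis and was left out on that ground. It held 23.0 CPM of dentate granule cell markers where the other libraries held at least 166, and 1639 CPM of striatal neuron markers where the others held at most 564.5. CPM scale the counts of a gene to the normalized total of its library, so that libraries of different depth can be compared. With 8 MS and 12 SR mice, the defining neuron markers were abundant in every library (Snap25 from 1669 to 2148 CPM), and for each of the 10 marker lists the summed levels of MS and SR mice overlapped. All 35 subunits passed the filter on low counts, with mean counts from 206 (Ndufa1) to 2850 (Ndufv1) and no count under 111.

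The complex I subunits lay slightly higher in MS than in SR hippocampus, by amounts that did not pass the test gene by gene. The log2 fold change (MS against SR) was above 0 for 33 of 35 subunits, against 50.3% of all 18146 genes tested, and its median was 0.14 against 0.00084. By edgeR (quasi-likelihood F test, p adjusted by Benjamini-Hochberg over all genes), 0 of 35 subunits were called at an adjusted p under 0.05 (background 0.011%), the lowest adjusted p being 0.111 for Ndufa2. At an unadjusted p under 0.05, 20 of 35 subunits were higher in MS (background 6.62%) and 0 were lower (background 4.92%). DESeq2 called 1 subunit, Ndufa2, with an adjusted p of 0.00788, where 0.59% of the genes tested were called higher and 0.904% in either direction. No subunit had all MS mice above all SR mice, which held for 0.00551% of genes. In whole tissue, a change in the number of cells of a type and a change in RNA per cell cannot be told apart. The counts depended on a set of 3 mice and on a property of the libraries: without set C 13 of 35 subunits were called (background 1.83%), and with each library's trend over transcript length as a term 8 of 35 were higher at an unadjusted p under 0.05 (background 5.83%).

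**Figure D1:**
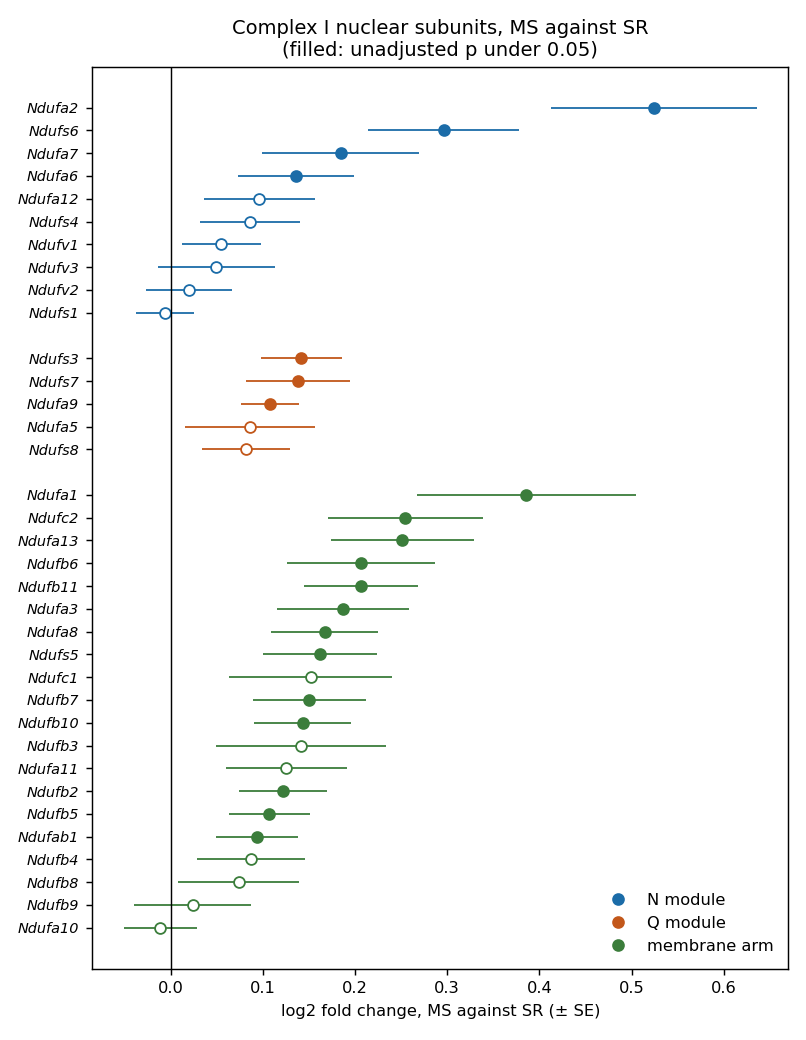
Log2 fold change of MS against SR (x axis) with its standard error for each of the 35 subunits (y axis), grouped by module, with filled points for an unadjusted p under 0.05. The points run from -0.01 for Ndufa10 to 0.52 for Ndufa2, and 33 of 35 lie to the right of 0.

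In the N module, 9 of 10 genes had log2 fold changes above 0 (background 50.3%), with a median of 0.091. At an unadjusted p under 0.05, 4 of the 10 were higher (background 6.62%). The small accessory subunits of this module lay highest. Ndufa2, a subunit with a thioredoxin-like fold, had 11.1 to 24.6 CPM in MS mice (median 18.6) and 9.40 to 15.0 CPM in SR mice (median 12.2). Of the 8 MS mice, 6 lay above the highest SR mouse, while mouse C3 lay among the SR mice. The means were 18.0 ± 4.36 CPM (SD, n = 8) and 12.5 ± 1.52 CPM (SD, n = 12). This gave the largest log2 fold change of the 35, 0.52 ± 0.11 (SE, edgeR adjusted p = 0.111). Ndufs6, a zinc-binding subunit needed late in assembly, ranged from 14.8 to 24.0 CPM in MS (median 20.9) and from 13.6 to 19.0 CPM in SR (median 16.4). Here 5 MS mice lay above all SR mice, and its log2 fold change was 0.30 ± 0.082 (SE, adjusted p = 0.1675).

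The remaining accessory subunits of the N module had smaller values. Ndufa7 had a log2 fold change of 0.18 ± 0.085 (SE), and Ndufa6, an LYR-motif protein that binds the mitochondrial acyl carrier protein, one of 0.14 ± 0.063. Ndufa12 (0.096), Ndufs4 (0.086) and Ndufv3 (0.050) lay nearer 0. Ndufs4 is the subunit whose loss in mice gives a Leigh-like brain disease. The core subunits of the module were close to equal in both groups. Ndufv1, which carries the flavin and binds NADH, had a log2 fold change of 0.055 ± 0.043, and Ndufv2, with an iron-sulfur cluster beside it, 0.020 ± 0.047. Ndufs1, the largest subunit, with several iron-sulfur clusters, spanned 117 to 132 CPM in MS (median 125) and 115 to 135 CPM in SR (median 125). The MS range lay inside the SR range, and the log2 fold change was -0.0064 ± 0.031 (SE, adjusted p = 0.962), which turned to 0.011 when total counts were used with no TMM factor.

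In the Q module all 5 genes had log2 fold changes above 0 (background 50.3%), with a median of 0.11. At an unadjusted p under 0.05, 3 of 5 were higher (background 6.62%). Ndufa9, an accessory subunit of the short-chain dehydrogenase fold that sits where the arms meet, had 75.4 to 88.1 CPM in MS (median 82.5) and 71.7 to 80.6 CPM in SR (median 76.6). It came closest to separate groups, with 7 of 8 MS mice above all SR mice and C3 the exception. Its log2 fold change was small, 0.11 ± 0.031 (SE, adjusted p = 0.189). Ndufs3, a core subunit without a cluster, lay between 58.7 and 77.5 CPM in MS (median 69.2) and between 58.5 and 66.2 CPM in SR (median 63.0). In it 5 MS mice were above all SR mice, and the log2 fold change was 0.14 ± 0.044 (SE, adjusted p = 0.211). Ndufs7, which holds the last iron-sulfur cluster before ubiquinone, had a log2 fold change of 0.14 ± 0.056, with 6 MS mice above all SR mice. Ndufs8, another iron-sulfur subunit, and the accessory Ndufa5 had log2 fold changes of 0.081 and 0.086.

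The membrane arm had the highest median of the modules, a log2 fold change of 0.15, with 19 of 20 genes above 0 (background 50.3%). At an unadjusted p under 0.05, 13 were higher (background 6.62%). The difference between modules was not tested. With the length trend described below as a term the membrane arm had 0.062 and the Q module 0.056, and without set A 0.11 and 0.10. Ndufa1, a small X-linked subunit, ranged from 6.08 to 15.9 CPM in MS (median 11.3) and from 6.25 to 11.0 CPM in SR (median 8.38). Mouse A3 lay far above the rest and mouse C3 was the lowest of all mice. Its log2 fold change was 0.39 ± 0.12 (SE, adjusted p = 0.2103). Ndufa13, also known as GRIM-19, had 43.4 to 74.5 CPM in MS (median 66.1) and 45.4 to 59.3 CPM in SR (median 52.1). In 6 MS mice it was above every SR mouse and in C3 below every one, with a log2 fold change of 0.25 ± 0.077 (SE, adjusted p = 0.211). Ndufc2 spanned 17.0 to 31.8 CPM in MS (median 26.1) and 18.7 to 23.3 CPM in SR (median 21.5). It showed the same order of mice, 5 above and C3 below the SR range, and a log2 fold change of 0.25 ± 0.084 (SE, adjusted p = 0.246).

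Ndufb11, the other X-linked subunit, had 35.6 to 48.4 CPM in MS (median 42.2) and 30.8 to 41.4 CPM in SR (median 36.6). Its 8 MS mice all lay above the 6 lowest SR mice, and the log2 fold change was 0.21 ± 0.062 (SE, adjusted p = 0.193). Ndufa8, a subunit of the intermembrane space with paired cysteines, ranged from 46.6 to 72.7 CPM in MS (median 58.0) and from 48.2 to 56.0 CPM in SR (median 50.9), a log2 fold change of 0.17 ± 0.058 (SE, adjusted p = 0.265). Mouse C1 was the highest and C3 the lowest of all mice in it. Ndufb10, likewise cysteine-rich, lay between 55.2 and 81.6 CPM in MS (median 66.6) and between 55.4 and 65.9 CPM in SR (median 61.6), a log2 fold change of 0.14 ± 0.052 (SE, adjusted p = 0.289). Ndufs5, of the same compartment, had 27.1 to 42.4 CPM in MS (median 36.3) and 29.2 to 35.6 CPM in SR (median 31.3), a log2 fold change of 0.16 ± 0.062 (SE, adjusted p = 0.315). In both genes C3 stood below the SR mice while 4 or 5 of the other MS mice stood above them. Ndufa3 ranged from 13.9 to 23.2 CPM in MS (median 17.4) and from 13.9 to 17.6 CPM in SR (median 16.2), a log2 fold change of 0.19 ± 0.071 (SE, adjusted p = 0.3151).

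Among the rest of the membrane arm, Ndufb6 (0.21), Ndufb7 (0.15), Ndufb2 (0.12), Ndufb5 (0.11) and Ndufab1 (0.093) had an unadjusted p under 0.05, the values in brackets being log2 fold changes. Ndufab1 is the mitochondrial acyl carrier protein, which also serves fatty acid synthesis. Ndufc1 (0.15), Ndufb3 (0.14), Ndufa11 (0.13), Ndufb4 (0.087), Ndufb8 (0.074) and the LYR-motif protein Ndufb9 (0.024) did not. Ndufa10, a subunit of the nucleoside kinase fold, was the lowest of the 35. It had 105 to 130 CPM in MS (median 114) and 103 to 127 CPM in SR (median 115), so that the groups covered each other. Its log2 fold change was -0.01 ± 0.040 (SE, adjusted p = 0.945), and 0.0059 with total counts and no TMM factor. Over all modules the median log2 fold change was 0.14 for the 29 accessory and 0.068 for the 6 core subunits. Without mouse C1 these medians were 0.11 and 0.020, and with the length trend described below as a term 0.064 and 0.018.

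**Figure D2:**
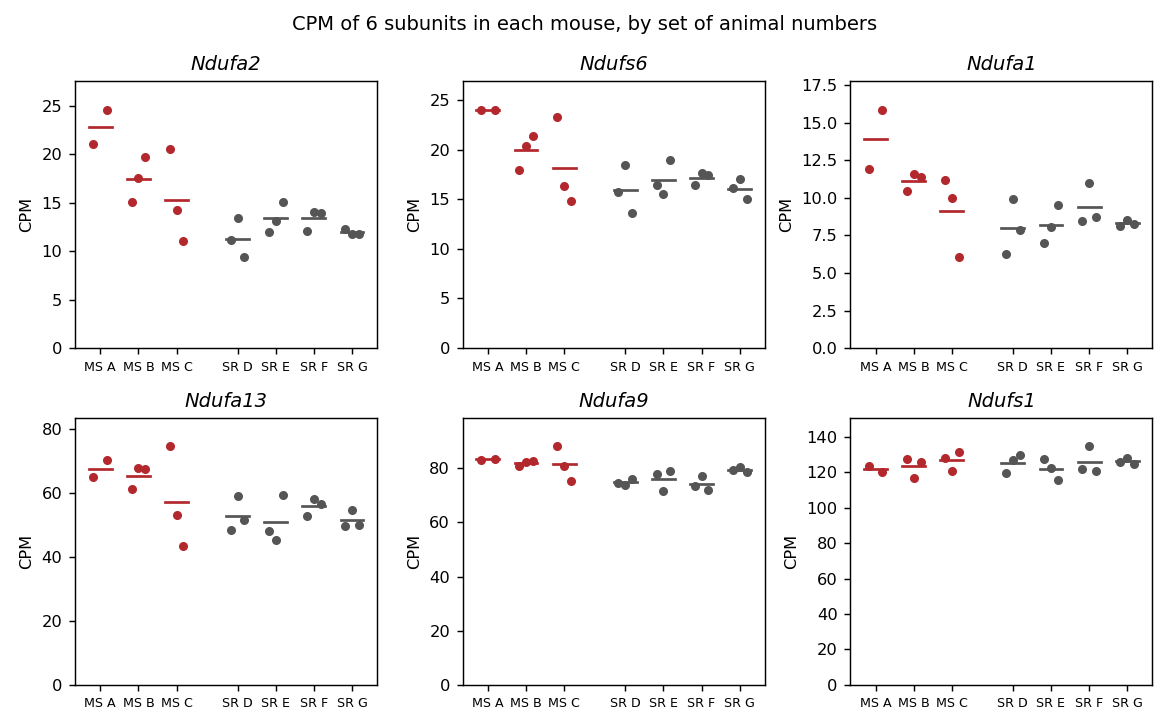
CPM of 6 subunits (y axis) in each of 8 MS and 12 SR mice, by set of animal numbers (x axis), with lines at the set means. In Ndufa2 and Ndufs6 all 3 MS set means lie above the 4 SR set means, mouse C3 lies among or below the SR mice in the first 4 panels, and the groups cover each other in Ndufs1.

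Levels of the subunits were compared per kilobase of transcript. In SR mice they ran from 3.88 ± 0.252 CPM per kb (SD, n = 12) for Ndufb2 to 83.2 ± 4.94 for Ndufb10, with a median of 43.7. Ndufv1 (77.8 ± 2.80 CPM per kb) and Ndufb8 (73.9 ± 5.90) followed Ndufb10, and their spreads met. From Ndufa8 (60.0 ± 3.08) down to Ndufb9 (58.8 ± 2.55) neighbouring genes did not differ beyond their spread. Ndufa2 was at 21.9 ± 2.65 and Ndufa1 at 20.2 ± 3.00 CPM per kb, near the low end. The order was almost the same in MS mice (Spearman rho 0.983 over 35 genes). The lowest genes per kb were Ndufb2, Ndufc1 (8.55 ± 0.781) and Ndufab1 (10.5 ± 0.442). Ndufb2 and Ndufab1 have annotated transcripts of 4371 and 3479 bases with coding parts of only 315 and 468 bases, so their levels depend on which transcript is taken, while that of Ndufc1 has 1249 bases. In other genes all annotated exons together were much longer than the transcript taken, so their order per kb depends on that choice too. Among them were Ndufb8 (3146 against 680 bases), Ndufb7 (4522 against 623) and Ndufb5 (4995 against 1079).

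The MS mice were more spread out than the SR mice in nearly all subunits. The SD of log2 CPM over mice was larger in MS for 33 of 35 subunits (background 67.3%), with a median of 0.198 in MS and 0.0915 in SR. Over all genes the medians were 0.186 and 0.158. The 2 exceptions were Ndufs1 and Ndufb2. Single mice stood at the ends. C3 was the lowest MS mouse for 29 of 35 subunits, C1 the highest for 17 and A3 the highest for 13. Without C1 and C3, which were picked after their values were seen, the SD was larger in MS for 25 of 35 subunits and for 54.4% of all genes.

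A mean over the 35 subunits of log2 CPM, taken relative to the SR mean, places each mouse. In MS it was 0.17 in A1, 0.31 in A3, 0.050 in B1, 0.17 in B2, 0.19 in B3, 0.32 in C1, 0.060 in C2 and -0.20 in C3. SR mice lay between -0.067 (D1) and 0.11 (E3), with a median of -0.014. So 5 MS mice lay above all SR mice, B1 and C2 within the SR range and C3 below it. In C1 all 35 subunits were above their SR mean, and in C3 only 4 were. The library A2 that was left out had a mean of 0.046.

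**Figure D3:**
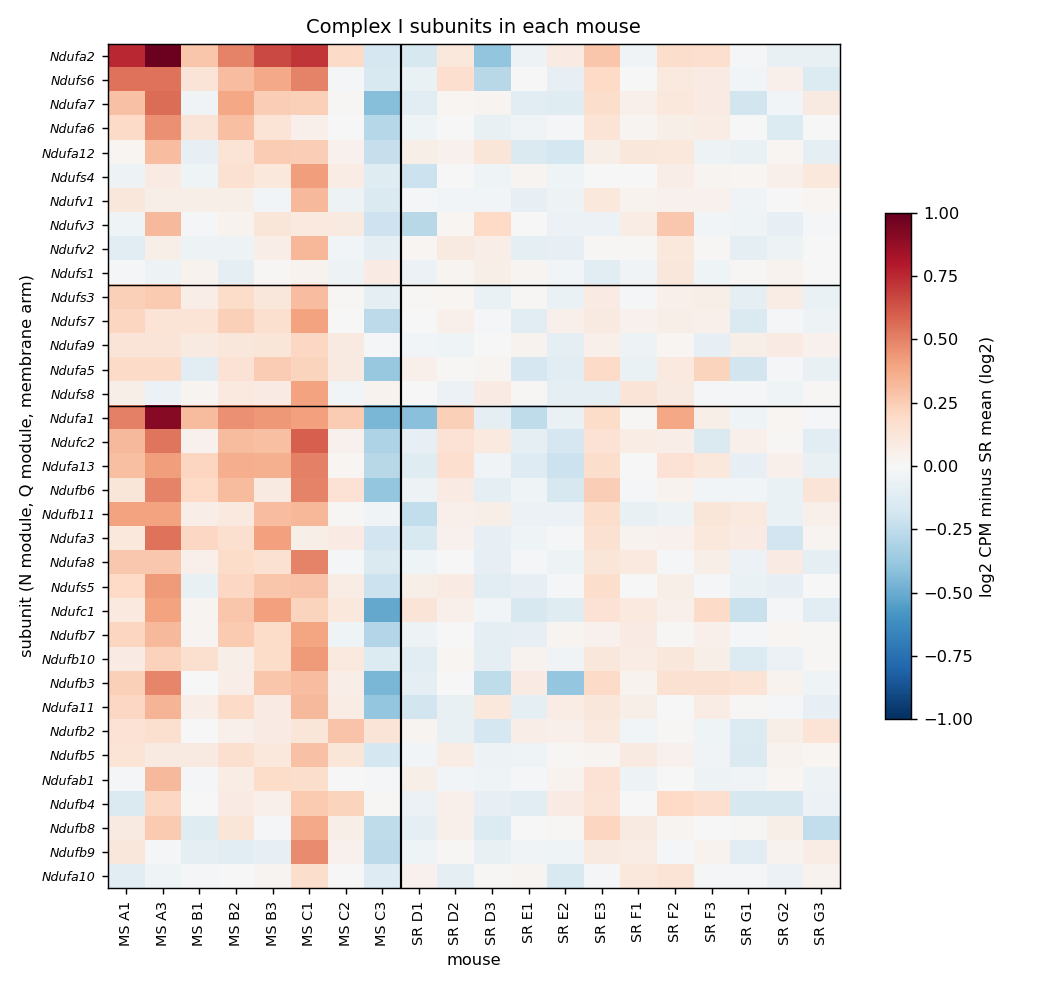
Log2 CPM of each subunit (rows, by module) minus its mean over SR mice, in each of 20 mice (columns, MS left of the line). Mice A3 and C1 are red over most rows and C3 is below the SR mean in 31 of 35, while most cells of the 12 SR mice are pale.

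By set, the mean over the subunits was 0.24 in A, 0.13 in B and 0.061 in C, and -0.026, -0.00013, 0.051 and -0.025 in the SR sets D to G. Set C held both the highest and the lowest mouse. In 11 of 35 subunits all 3 MS set means of log2 CPM were above all 4 SR set means (background 5.33%). These were Ndufa2 and Ndufs6 in the N module, Ndufs3 and Ndufa9 in the Q module and Ndufa8, Ndufb5, Ndufb6, Ndufb10, Ndufb11, Ndufc2 and Ndufs5 in the membrane arm. Set A was the highest MS set for 25 subunits, and set C was the lowest for 25. When counts were summed within sets, so that 3 MS sets were compared with 4 SR sets, the median log2 fold change was 0.15, 19 of 35 subunits were higher at an unadjusted p under 0.05 (background 4.98%) and 0 were called, with a lowest adjusted p of 0.382.

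Leaving out mice changed the calls. Without C3, 6 of 35 subunits were called (background 0.596%), all higher in MS. They were Ndufa2 (log2 fold change 0.60 ± 0.096 SE, adjusted p = 0.00667), Ndufa13 (0.31 ± 0.061, adjusted p = 0.0238), Ndufa1 (0.47 ± 0.096, adjusted p = 0.0249), Ndufs6, Ndufc2 and Ndufb6. Without the whole of set C the 13 called were Ndufa2, Ndufs6, Ndufa6 and Ndufa7 of the N module, Ndufs3 and Ndufs7 of the Q module and Ndufa1, Ndufa3, Ndufa8, Ndufa13, Ndufb7, Ndufb11 and Ndufc2 of the membrane arm. Without C2 the test called Ndufa2 alone (background 0.597%). Leaving out any other mouse or set gave 0 calls.

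The subunits varied together from mouse to mouse. After the group means were removed, the Pearson correlation of log2 CPM over the 20 mice had a median of 0.575 over the 595 pairs of subunits, with 545 pairs above 0, against -0.002 over pairs of all genes. The points share libraries, so these are descriptions. The SD over mice of the mean over the subunits was 0.166 in MS and 0.0583 in SR, so MS mice weigh more in these correlations. How far they rest on C1, C3 and A3 was not tested, and pairs of other respiratory chain genes were not compared. Medians within modules were 0.470 in N, 0.424 in Q and 0.619 in the membrane arm. Ndufa13 followed the others most closely, with a mean correlation of 0.652, before Ndufb7 (0.648) and Ndufc2 (0.641). Ndufs1 went against them with a mean of -0.207, and Ndufb2 stood apart at 0.0113.

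Animal numbers fall into a lower and a higher range, which the labels do not explain, with 5 MS and 9 SR mice in the first range and 3 MS and 3 SR mice in the second. In the first range 30 of 35 subunits had a log2 fold change above 0 (background 49.6%), with a median of 0.15, and 19 were higher at an unadjusted p under 0.05 (background 8.65%). In the second range 33 of 35 were above 0 (background 50.5%), with a median of 0.11, and 2 were higher at an unadjusted p under 0.05 (background 3.74%). No subunit was called in either, at backgrounds of 0.0496% and 0%. The test of the difference between the ranges called 0 of 35 subunits (background 0%), the lowest adjusted p being 0.4928, and 2 had an unadjusted p under 0.05 (background 8.67%). Ndufb4 had log2 fold changes of -0.0040 in the first and 0.30 in the second range, and Ndufa6 had 0.23 and -0.023. The second range holds set C alone as MS, so its estimates rest on C1, C2 and C3.

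Most of these genes have short transcripts, though the lengths run from 419 to 4371 bases. Their annotated transcripts had a median of 908 bases and coding parts a median of 435 bases, against 2573 and 1158 bases over protein-coding genes. Over the 35 subunits the log2 fold change was higher for shorter transcripts (Pearson r -0.542, Spearman rho -0.629) and for shorter coding parts (-0.616 and -0.69). Over all genes the relation to transcript length was weaker (-0.095 and -0.159). These are correlations across genes, which are not independent replicates. Subunits of up to 600 bases had a median log2 fold change of 0.187 (7 genes) where all genes of that length had 0.0378. Subunits of over 1200 bases had 0.086 (11 genes) where all genes had -0.00349. In the classes between, over 600 to 800 and over 800 to 1200 bases, the subunits had 0.147 and 0.107 and all genes 0.0478 and 0.0471.

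**Figure D4:**
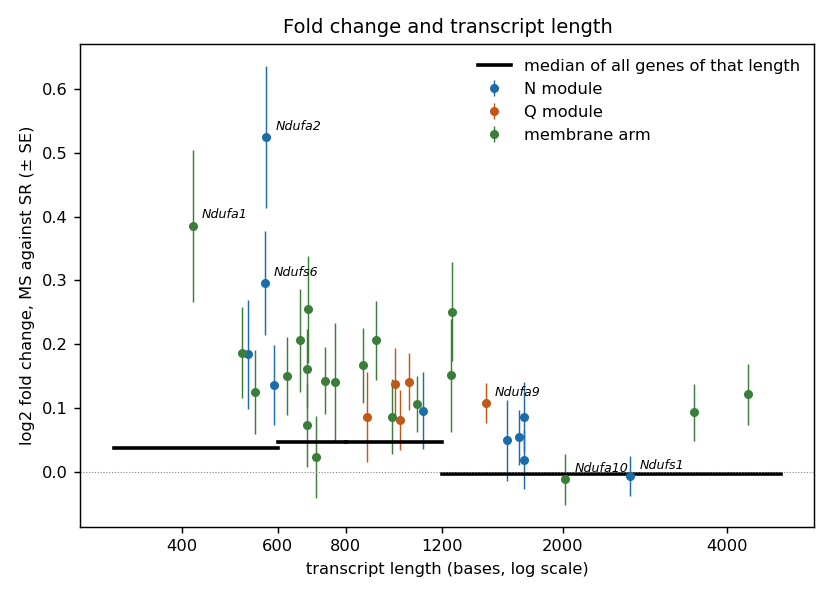
Log2 fold change of MS against SR with its standard error (y axis) against annotated transcript length in bases (x axis, log scale) for the 35 subunits, coloured by module, with bars at the median of all genes in 4 length classes. From the shortest class to the longest, 7 of 7, 7 of 8, 9 of 9 and 9 of 11 subunits lie above the bar, and the highest, Ndufa2, Ndufa1 and Ndufs6, are under 600 bases long.

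The libraries themselves differed in how level went with transcript length. For each library this trend was taken as the Spearman rho over genes between transcript length and the log2 CPM relative to the mean of all 20 libraries, so that a negative value means relatively more counts on short transcripts. In MS it ran from -0.342 in C1 to 0.178 in C3, with a median of -0.032, and in SR from -0.115 to 0.136, with a median of 0.044. C1, with the lowest trend, had the highest mean over the subunits, and C3, with the highest trend, had the lowest. A3 was second in both. With the trend as a term in the fit, the median log2 fold change of the subunits was 0.056, with 28 of 35 above 0 (background 51.1%). Ndufa2 then had 0.37 ± 0.095 (SE, adjusted p = 0.188), Ndufs6 0.19 ± 0.072 and Ndufa9 0.087 ± 0.031. The part of the trend in the difference between MS and SR was not tested beyond this fit.

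**Figure D5:**
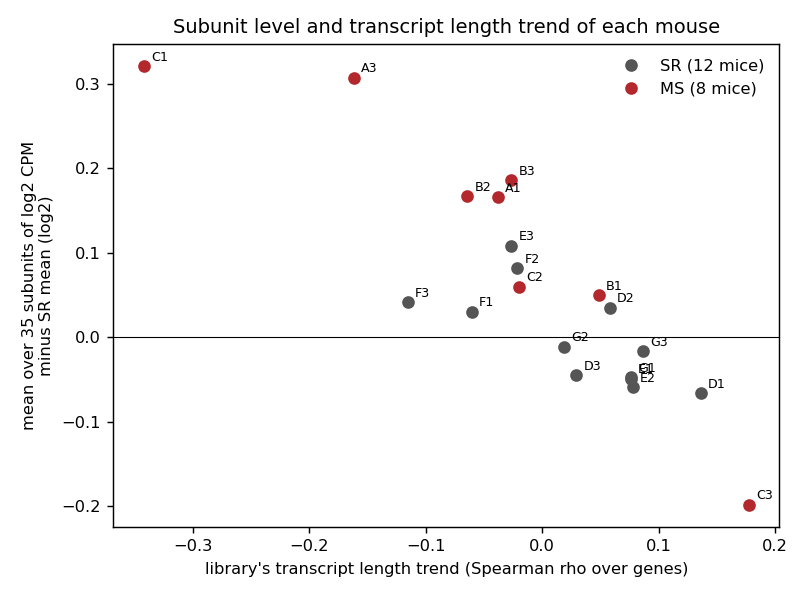
Mean over the 35 subunits of log2 CPM minus the SR mean (y axis) against the library's transcript length trend (x axis, Spearman rho over genes), 1 point per mouse. C1 lies at the upper left (0.32 at -0.342) and C3 at the lower right (-0.20 at 0.178), with the SR mice between.

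The genes are scattered over the genome, 5 of them on chromosome 17 (Ndufa7, Ndufa11, Ndufb10, Ndufv2 and Ndufv3) and 2 on the X chromosome. On GRCm38, in the GENCODE annotation, Ndufa2 (ENSMUSG00000014294) lies on the minus strand of chromosome 18 from 36742332 to 36744557, with 3 exons. Ndufs6 (ENSMUSG00000021606) lies on the minus strand of chromosome 13 from 73319838 to 73328542, with 4 exons. Ndufa1 (ENSMUSG00000016427) lies on the minus strand of the X chromosome from 37187588 to 37191163, with 3 exons, and Ndufa9 (ENSMUSG00000000399) on the minus strand of chromosome 6 from 126821721 to 126849136, with 11 exons.

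Several subunits share sequence with processed pseudogenes. Ndufb4c matches Ndufb4 at 100% over 390 bases and had a mean of 228 counts per library beside 526 for Ndufb4, so reads of this pair may be split between them. The log2 fold change of Ndufb4c was 0.19 ± 0.079 (SE) beside 0.087 for Ndufb4. BC002163, 99.4% identical to Ndufs5 over 319 bases, had 63.5 counts beside 737. For 10 other subunits the copies had means of at most 16.95 counts. Ndufa2 shares 66 exon bases with Tmco6 on the other strand, and Ndufa13 375 with Tssk6. Also on the other strand, Ndufb2 shares 146 with Braf, which had a mean of 3215 counts beside 385 for Ndufb2. Ndufb11 shares 117 with Rbm10 (1742 beside 857 counts) and Ndufb5 616 with Mrpl47 (253 beside 1084 counts). Some other subunits overlap genes as well. The setting for strand in the counting was not stated. Tmco6 had a log2 fold change of 0.071 (adjusted p = 0.679) and Tssk6 lay under 1 CPM in both groups.

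The partners of these subunits that mitochondrial DNA encodes lay mostly below 0. Of the 7 mitochondrial complex I mRNAs, 1 had a log2 fold change above 0 (background 50.3%), and the median was -0.19. At an unadjusted p under 0.05, 5 were lower (background 4.92%), and 0 were called. The 7 values ran from -0.28 ± 0.070 (SE, adjusted p = 0.134) for mt-Nd6 to 0.057 ± 0.066 for mt-Nd3. mt-Nd6 had 711 to 1121 CPM in MS (median 852) and 928 to 1180 CPM in SR (median 1032), so that the MS median lay below the lowest SR mouse while the ranges overlapped. The share of all counts on mitochondrial genes was 4.13% to 5.53% in MS (median 4.81%) and 4.91% to 5.45% in SR (median 5.17%).

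Of 18 complex I assembly factors tested, 12 had log2 fold changes above 0 (background 50.3%), with a median of 0.051. At an unadjusted p under 0.05, 1 was higher, a share near the background of 6.62%, and 0 were called. That 1 was Ndufaf1, which helps to build the membrane arm (0.17 ± 0.059 SE, adjusted p = 0.269). The values ran from -0.045 for Ecsit to 0.20 for Ndufaf8. The subunits of complexes II to V, the rest of the oxidative phosphorylation chain, lay like those of complex I. Of the 42 genes listed for them, 41 were above 0 (background 50.3%), with a median of 0.17. At an unadjusted p under 0.05, 30 were higher (background 6.62%), and 0 were called. In complex II the values ran from 0.027 (Sdha) to 0.18 (Sdhd) and in complex III from 0.0071 (Uqcrc2) to 0.30 (Uqcr10). In complex IV they ran from 0.13 (Cox7b) to 0.25 (Cox8a) and in the complex V list from -0.039 (Atpif1) to 0.42 (Atp5e). Atpif1, the only gene of the 42 below 0, encodes an inhibitor of complex V and not a subunit. The lowest subunit of complex V was Atp5c1 (0.019). Among 11 regulators of respiratory genes, 3 were higher at an unadjusted p under 0.05 (background 6.62%) and 0 were called. Esrra, the estrogen-related receptor alpha, was highest (0.15 ± 0.042 SE, adjusted p = 0.161), and the coactivator Ppargc1b lowest (-0.12 ± 0.11).

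Cell type markers were read beside these values. Of the 4 neuron markers, 2 were lower at an unadjusted p under 0.05 (background 4.92%). All 4 had log2 fold changes below 0, from -0.13 (Syt1, adjusted p = 0.182) to -0.054 (Map2). Their summed level was 3929 to 4571 CPM in MS and 4231 to 4835 CPM in SR. No marker of the other 9 lists was called or reached an unadjusted p under 0.05. Among these, striatal neuron markers had sums of 64.5 to 564.5 CPM in MS and 67.9 to 348 CPM in SR, with the lowest log2 fold change at 0.36 (Drd1). The log2 fold changes of choroid plexus markers ran from 0.80 (Kl) to 1.08 (Clic6), with sums of 51.6 to 4135 CPM in MS and 27.8 to 4460 CPM in SR. The highest of the pyramidal cell markers was 0.017 (Spink8). The remaining lists had these extremes of log2 fold change: dentate granule cells -0.14 (Prox1) and -0.028 (C1ql2), astrocytes -0.093 (Slc1a2) and 0.066 (Gfap), oligodendrocytes 0.0020 (Mog) and 0.036 (Mag), microglia -0.084 (Cx3cr1) and 0.15 (C1qa), endothelium -0.0072 (Pecam1) and 0.25 (Cldn5), and red blood cells 0.19 (Hba-a2) and 0.40 (Hbb-bt). The part of cell composition in the subunits' values was not tested.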

How the data were processed

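Hippocampal poly-A RNA gave 1 library for each mouse (NEBNext Ultra II Directional kit, NovaSeq6000, paired ends). Alignment by the authors used STAR 2.7.3a and GRCm38, featureCounts gave counts per Ensembl gene, and the deposited values are these raw counts, not normalized or filtered. All count columns belong to a sample. The subunits and gene lists were chosen with earlier results of these data known. Groups follow the rearing given in the labels. The library farthest from the median on the first principal component of DESeq2's variance-stabilised counts (500 most variable genes) was left out. The study also removed 1 outlier by principal components, which it does not name.

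Counts were filtered by filterByExpr (minimum count 10), normalized by TMM and fitted with edgeR 4.0.16 (R 4.3.3, robust quasi-likelihood F test) with Benjamini-Hochberg adjustment over 18146 genes. A log2 fold change is of MS against SR, its standard error is its absolute value over the root of the F statistic, and log2 CPM used a prior count of 2. DESeq2 1.42.0 and limma 3.58.1 gave alternatives. The subunits described in full are the 12 with the smallest unadjusted p and those below 0; other lists are given by their extremes, of which 2 are not reported here. Gene models are GENCODE M21, near-identical copies (at least 90% over 200 bases) were found with BLAST 2.17.0, and starts are RefSeq's. The closest libraries of a group differed by 3.58 times the sampling noise in a chi-square test per degree of freedom, so each was counted once. Mice of a set may share a nest, and p-values treat them as separate. The fits were tested on simulated counts drawn for each mouse on its own. The simulation held no effect shared within a set and no length trend, so it does not test the fits against these. Counting error is largest for genes of few counts.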

Additional observations from a re-analysis of the deposited data

Results flagged for a closer look

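In 5 of 35 subunits a single MS mouse stood apart from the other 7 by Dixon's test at the 95% level, which chance gives in about 1 of 20 groups. The test was run on the subunits only. The share over all genes in these mice is not known, so the count cannot be read as particular to the subunits. Mouse C1 was high in Ndufv2 (96.0 CPM), Ndufs4 (38.0 CPM), Ndufs8 (64.7 CPM) and Ndufb9 (57.6 CPM), and mouse C3 was low in Ndufa11 (21.8 CPM). The subunits share the same mice, so these are not 5 separate observations. Without C1 the log2 fold changes of Ndufv2 and Ndufb9 were -0.031 and -0.055.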

How the results depend on the processing

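Of 1365 values for single subunits under the alternatives, 1318 kept the direction and the side of the threshold, 24 became calls and 23 turned direction. The number of subunits called was 1 with DESeq2's Wald test (background 0.904%). It was 3 (Ndufa2, Ndufa1 and Ndufa13, background 0.392%) without mice C1 and C3, an alternative chosen after seeing the data. When mice or sets were left out in turn it was 0 to 13, with 6 without C3 (background 0.596%) and 13 without set C (background 1.83%). The number higher at an unadjusted p under 0.05 was 8 with the transcript length trend as a term (background 5.83%). When mice or sets were left out it was 10 to 25, the 25 without C3 (background 7.18%). It was 13 without A3 (background 4.89%), 10 without set A (4.6%), 13 without B (5.38%), 12 without D (5.03%) and 13 without G (5.94%). The causes were not tested. Over all alternatives the median log2 fold change of the 35 subunits stayed between 0.056 and 0.18. Those of the modules moved by less than the spread between mice (0.113). This is a wide margin, since the main medians of the N module (0.091) and the Q module (0.11) were smaller than it. With the length trend as a term the medians were 0.015 in N, 0.056 in Q and 0.062 in the membrane arm.

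Directions turned in 8 subunits, none with a log2 fold change over 0.086. With the length trend as a term, Ndufv1 had a log2 fold change of -0.0078, Ndufv2 -0.040, Ndufv3 -0.012, Ndufa5 -0.0044, Ndufb8 -0.031, Ndufb9 -0.076 and Ndufs1 0.00086. With total counts Ndufs1 had 0.011 and Ndufa10 0.0059. With all 21 libraries Ndufv2 had -0.0087, and without C1 and C3 Ndufv2 had -0.017 and Ndufb9 -0.019. When mice or sets were left out, Ndufv2 ran from -0.031 to 0.038 (-0.019 without set C), Ndufb9 from -0.055 to 0.090 (-0.036 without set C), Ndufs1 from -0.024 to 0.0040 (0.0032 without B2, 0.0011 without set A) and Ndufa10 from -0.040 to 0.012 (0.0017 without F2, 0.0031 without C3, 0.0084 without set A, -0.030 without set C). Ndufa2 stayed above 0 throughout, with adjusted p from 0.00322 to 0.4545. All alternatives to the ranges of animal numbers called 0 subunits for the difference. No paired analysis was possible because the labels give no replicate numbers that the groups share, only the order of accessions. The common biological coefficient of variation was 13.3%, and the number of mice limits which differences can be called.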
